A study of Mus musculus with 6 samples.

Results

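The levels of 10 genes of retinoic acid metabolism, binding and signalling were followed through 6 RNA sequencing libraries of mouse cells made from embryonic stem cells in culture and labelled sinoatrial node-like cardiomyocytes, the pacemaker cells of the heart. The 10 genes (Aldh1a2, Rdh10, Dhrs3, Cyp26a1, Cyp26b1, Rara, Rarb, Rarg, Crabp1 and Crabp2) were taken by symbol, and all 10 were found among the 30631 genes that each library lists. Per the labels, 3 libraries came from wild type cells (Shox2+/+) and 3 from Shox2-/- cells, all collected at stage 7+1 days of hanging drop differentiation after sorting by flow cytometry for CD166 (the product of Alcam) on the cell surface. Embryonic fibroblasts had served as feeders for the stem cell clones. The 3 titles labelled Shox2-/- share the clone-like prefix J2 and the 3 labelled wild type carry different prefixes, so genotype and clone cannot be told apart. The making of the Shox2 allele is not described in the sources used here. Separate cultures for the samples of a group are not stated either, so a p-value here measures the spread between these samples alone, and that spread may be technical.

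Retinoic acid is made from retinol (vitamin A) in a pair of oxidation steps. RDH10 turns retinol into retinal, DHRS3 returns retinal to retinol, and ALDH1A2 oxidises retinal to retinoic acid. CRABP1 and CRABP2 carry the acid in the cytoplasm, CYP26 enzymes break it down, and the nuclear receptors RARA, RARB and RARG, paired with RXR partners, bind DNA and switch target genes when the acid is present. In the embryonic heart, retinoic acid is known for setting the posterior, inflow end that gives rise to the atria and the sinus venosus, and the epicardium is a known site of Aldh1a2 expression.

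Rarb and Cyp26a1 are themselves textbook targets of the pathway, and their promoters are known for the direct repeat that pairs of RAR and RXR bind, so they are shown here. RefSeq promoters on build GRCm38.p6, from 250 bases before to 50 bases after each transcript start, were searched on both strands for such a repeat, defined as a 6-letter core (either AGGTCA or else AGTTCA or else GGGTCA or else GGTTCA), then any 5 letters, then again any of these 4 cores. No other motif was searched. The table holds promoters for 8 of the 10 genes, and not for Rdh10 and Crabp2. The repeat was present in 32 of 32851 promoters (0.0974%), which belong to 31 genes, and Rarb and Cyp26a1 were among them. The windows below end before the transcript start, run 5′ to 3′ in the direction of the gene, and show the 17-base repeat in capitals. That of Rarb lies on the minus strand at chr14:16575477-16575569 and that of Cyp26a1 on the plus strand at chr19:37697736-37697807.
Rarb: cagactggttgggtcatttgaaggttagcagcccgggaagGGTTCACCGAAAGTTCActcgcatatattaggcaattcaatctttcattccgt
Cyp26a1: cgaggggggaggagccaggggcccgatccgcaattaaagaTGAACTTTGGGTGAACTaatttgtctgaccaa
The Rarb repeat begins 53 bases before a start at position 16575476, which lies inside the annotated span of the gene. The Cyp26a1 repeat begins 32 bases before the start at position 37697808 and faces the other way, so on the opposite strand it reads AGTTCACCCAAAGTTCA. Read in the same sense, 15 of the 17 positions are identical between the repeats. A match is a description of the letters and not evidence of binding in these cells.

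The libraries held 13504683 to 34650564 reads assigned to genes, and library 1 of each group was the shallowest. Values are normalized read counts (reads divided by 1 size factor per library), and 1 read was worth 0.652 to 1.73 of them. Where 3 values are given for a group, they are libraries 1, 2 and 3 in that order. Libraries 1 and 2 labelled wild type were near copies, with a median absolute log2 difference of 0.092 over the genes tested, against 0.185 to 0.403 in the other 14 pairs of libraries. In a test against counting error at an unadjusted p under 0.05, they differed at 13.1% of genes, against 42.6% to 64.7% in the other 14 pairs. Counting error alone also passes some genes at that cut. They were kept as 2 samples, but the 13.1% does not show that they are independent. With them averaged into 1 sample, 1585 genes had an unadjusted limma p under 0.05, against 2411 when kept apart. Libraries 1 and 2 labelled wild type carry Diff9 in their titles, as does library 3 labelled Shox2-/-, and the meaning of that number is not stated. Shox2 was higher, not lower, in the libraries labelled Shox2-/-, at 68.2 ± 32.0 and 374 ± 174 (SD, n = 3 each; log2 change 2.46, limma adjusted p = 0.201), and every direction given here is a direction between labels. Which part of Shox2 the allele lacks is not stated in the sources used here. Alcam, the gene of the sorted protein, was abundant in each library, at 6319 ± 415 and 4598 ± 622 (SD, n = 3 each; log2 change -0.47, limma adjusted p = 0.242). The groups do not overlap for either gene. Both were called with voom sample quality weights (adjusted p = 0.0185 for Shox2 and 0.0331 for Alcam), in a fit that called 303 genes (1.78% of those tested). Under other alternatives their limma adjusted p-values reached 0.514 for Shox2 and 0.536 for Alcam. Each of the 10 cardiomyocyte and 10 sinoatrial node markers had reads in at least 1 library, with summed cardiomyocyte levels of 11632 to 32473 in libraries labelled wild type and 14915 to 38919 under the Shox2-/- label. Sinoatrial markers, led by Gjc1 and Smoc2, summed to 5874 to 9071 and 6934 to 7615. Smoc2 alone was at 5712 in library 3 labelled wild type and at 445 to 1859 in the others, so that sum rests largely on 1 gene. By log2 change, 6 of the 10 sinoatrial markers were higher and 4 lower under the Shox2-/- label, and the list includes Shox2 itself. The 10 markers of each of 6 other kinds of cell also had reads: mesenchyme and fibroblast markers summed to 365018 to 594835 and 175216 to 275128, and epicardium markers to 6540.3 to 8014 and 2176 to 6095. In bulk RNA, fewer cells of a type and less RNA per cell cannot be told apart.

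None of the 10 genes passed the test between the labelled groups with p-values adjusted over all genes. Limma on log2(normalized count + 1) with Benjamini-Hochberg adjustment over 17034 genes called 0 members, and it called 0.0% of all genes. The members' adjusted p-values ran from 0.274 to 0.741. All 10 passed the filter on low values in both groups, with a lowest value of 38.4. At an unadjusted p under 0.05 there was 1 member, Cyp26a1, where 14.2% of all genes passed. Groups did not overlap for 2 members, Cyp26a1 and Rdh10, a share near the 23.6% of all genes with groups that do not overlap (12.8% higher, as Cyp26a1, and 10.8% lower, as Rdh10). In sign, 5 members had a positive and 5 a negative change (Shox2-/- minus wild type), where 48.2% of all genes were lower. Their median log2 change was -0.03, beside 0.01 for all genes tested.

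**Figure D1:**
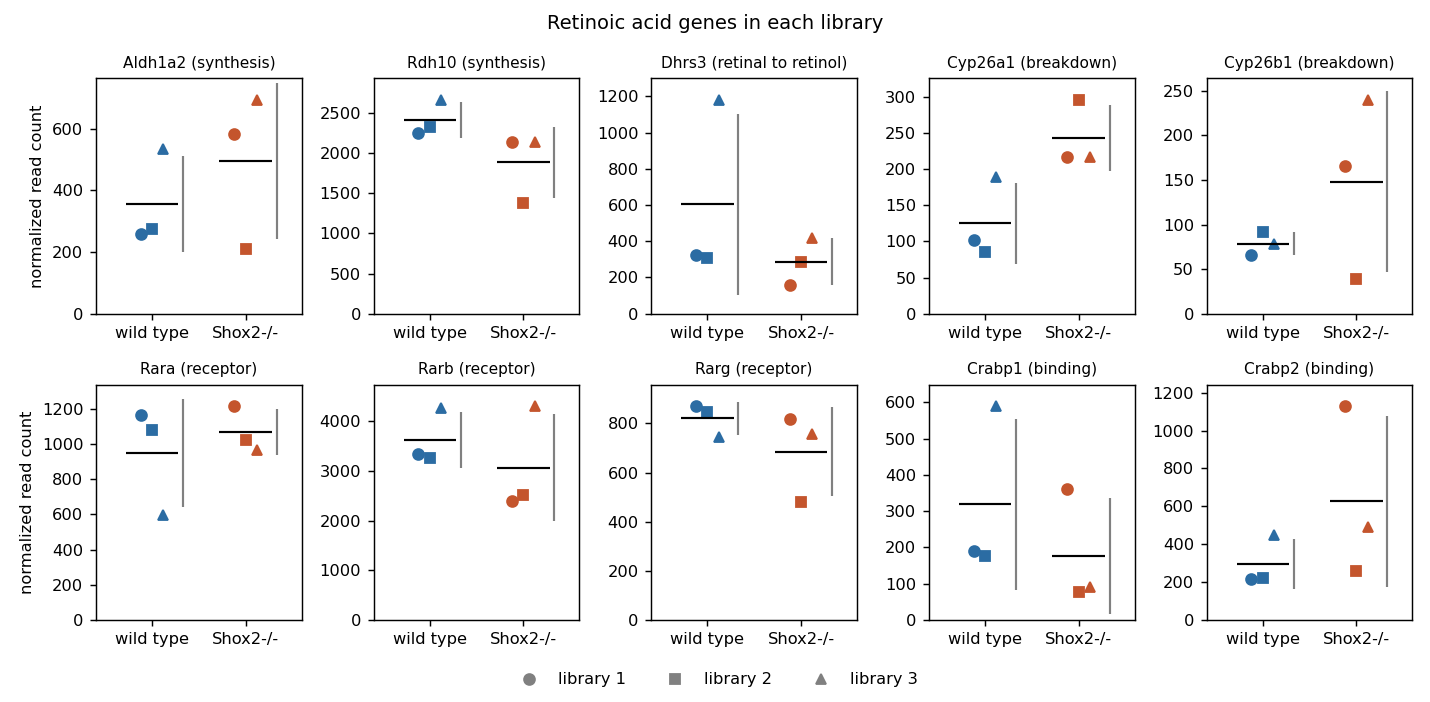
Normalized read count of each of the 10 genes (vertical axes, each from 0) in the 3 libraries labelled wild type (blue) and the 3 labelled Shox2-/- (orange); symbols mark the library number, black bars the group mean and grey lines the mean ± SD (n = 3). The groups separate for Cyp26a1 and Rdh10, while for Dhrs3 and Crabp1 library 3 labelled wild type stands above the rest.

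Among the synthesis genes, Rdh10, which encodes the retinol dehydrogenase of the first step (ENSMUSG00000025921, chromosome 1, 16105774 to 16133734, plus strand), was abundant and lower in each library labelled Shox2-/-. It stood at 2247, 2325 and 2665 normalized counts under the wild type label, and at 2142, 1375 and 2137 under the Shox2-/- label. The groups do not overlap, but the gap between library 1 labelled wild type and library 1 labelled Shox2-/- is small beside the spread within the second group, where library 2 is low. The means were 2412 ± 222 and 1884 ± 442 (SD, n = 3 each), a log2 change of -0.38 (SE 0.19, 95% interval -0.82 to 0.06) with an adjusted p of 0.397 in limma. Without library 2 labelled Shox2-/- the log2 change was -0.17.

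Aldh1a2, the gene of the enzyme that makes retinoic acid in most of the early embryo (ENSMUSG00000013584, chromosome 9, 71215789 to 71296243, plus strand), varied more within each group than between them. It was at 257, 273 and 534 normalized counts under the wild type label. It was at 583, 208 and 693 under the Shox2-/- label. The highest and the lowest library both carry the Shox2-/- label and differ 3.33-fold, and the groups overlap. The log2 change was 0.39 (SE 0.48, 95% interval -0.75 to 1.52; limma adjusted p = 0.741). With 1 library left out it ran from 0.06 (without library 3 labelled Shox2-/-) to 0.92 (without library 2 of that group), and without any 1 of the other 4 libraries it also moved by over 1.5 times. The summed level of the epicardium markers was lowest, at 2176, in library 1 labelled Shox2-/-, where Aldh1a2 was at 583. It was highest, at 8014, in library 3 labelled wild type, where Aldh1a2 was at 534. The part of epicardial cells in the Aldh1a2 level was not tested. The sister genes Aldh1a1 and Aldh1a3, named for their role, were low, at 5.18 to 12.5 for Aldh1a1 outside library 3 labelled wild type (175) and at 13.4 to 41.6 for Aldh1a3.

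Dhrs3, whose enzyme draws retinal back to retinol and so opposes RDH10 (ENSMUSG00000066026, chromosome 4, 144892827 to 144928209, plus strand), was set apart by a single library. It was at 324, 307 and 1182 normalized counts under the wild type label. The libraries labelled Shox2-/- had 157, 288 and 418. Library 3 labelled wild type lies above all others, library 1 labelled Shox2-/- lies below them, and the remaining 4 intermix. The range over all 6 libraries was 7.50-fold. The group means of 604 ± 500.2 and 288 ± 130.2 (SD, n = 3 each) correspond to a log2 change of -0.88 (SE 0.57, 95% interval -2.21 to 0.46; limma adjusted p = 0.502), which became -0.24 without library 3 labelled wild type, -0.50 without library 1 labelled Shox2-/- and -0.08 with voom sample quality weights. The same library had the highest sum of 6 of the 8 marker lists, including mesenchyme and fibroblast (594835, next highest 369985), neural (6410.2, next highest 4619), epicardium, endoderm, pluripotency and sinoatrial node, and the lowest sum of cardiomyocyte (11632) and endothelium (4825) markers. Single genes led some of these sums: Smoc2 made up 5712 of the 9071 for sinoatrial node, and Afp 7020 of the 10342 for endoderm. No sinoatrial marker other than Smoc2 was highest in this library, and Hcn4, Shox2, Cacna1d and Gjc1 were at their lowest there. The part of the marked kinds of cell in the Dhrs3 value was not tested.

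The balance of these enzymes was described with ratios per 1000 exon bases, chosen for their roles after the values were seen and not tested. Rdh10 exceeded Dhrs3 in each library, 4.89, 5.33 and 1.59 times under the wild type label and 9.57, 3.36 and 3.60 times under the Shox2-/- label. The ratio of the synthesis gene Aldh1a2 to the breakdown gene Cyp26a1 was 2.23, 2.82 and 2.48 under the wild type label and 2.36, 0.617 and 2.80 under the Shox2-/- label. Library 2 labelled Shox2-/- is the one library in which Cyp26a1 exceeded Aldh1a2 per length, and the groups overlap in both ratios.

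Of the breakdown enzymes, Cyp26a1 gave the lowest p-value of the 10 genes. This cytochrome P450 clears retinoic acid and its gene is known as a target of the acid through the repeat printed above (ENSMUSG00000024987, chromosome 19, 37697798 to 37701536, plus strand). It was at 101, 84.7 and 188 normalized counts under the wild type label, from 61, 130 and 240 reads. Under the Shox2-/- label it was at 216, 296 and 217, from 125, 331 and 293 reads. Each library labelled Shox2-/- lies above every library labelled wild type, library 3 of the latter being the nearest. The means of 125 ± 55.7 and 243 ± 45.7 (SD, n = 3 each) differ 1.95-fold, with a log2 change of 1.03 (SE 0.32, 95% interval 0.29 to 1.77), an unadjusted p of 0.0132 and an adjusted p of 0.274 in limma. Its change lies above those of 99.1% of the genes tested. Other members with groups that overlap also rank near the ends: Crabp2 (98.8%) and Cyp26b1 (96.1%) high, Crabp1 (4.71%) and Dhrs3 (5.78%) low. The rank takes no account of the spread between libraries. Cyp26a1 was called in 1 of the 16 alternative analyses: with voom sample quality weights its log2 change was 1.37 (adjusted p = 0.0221, against 0.157 to 0.539 with a library left out), in a fit that called 303 genes (1.78% of those tested) and gave weights of 3.59 and 4.22 to libraries 1 and 2 labelled wild type, the near copies, and 0.206 to library 3. With these 2 libraries averaged into 1 sample, the log2 change was 0.86 (limma adjusted p = 0.527).

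Cyp26b1, the partner enzyme with a different tissue range (ENSMUSG00000063415, chromosome 6, 84571414 to 84593908, minus strand), showed no such separation. The libraries labelled wild type had 66.4, 91.25 and 78.5 normalized counts, and those labelled Shox2-/- had 166, 38.4 and 239.98. The 3 values labelled wild type fall between the extremes of the other group, where library 2 rests on 43 reads and library 3 on 324. The log2 change was 0.56 (SE 0.62, 95% interval -0.90 to 2.02; limma adjusted p = 0.706). It was 0.30, 1.34 and 0.04 without libraries 1, 2 and 3 labelled Shox2-/-. The third member of the family, Cyp26c1, was at 0 to 5.93 and was not tested. Per length, the ratio of Cyp26a1 to Cyp26b1 was 4.12, 2.51 and 6.48 under the wild type label and 3.51, 20.8 and 2.44 under the Shox2-/- label, so Cyp26a1 led in each library and most of all in library 2 labelled Shox2-/-. Cyp26b1 followed Aldh1a2 across libraries, with a Pearson r of 0.86 on the log2 scale over the 6 libraries, the highest of the 45 pairs of members and given as a description.

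**Figure D2:**
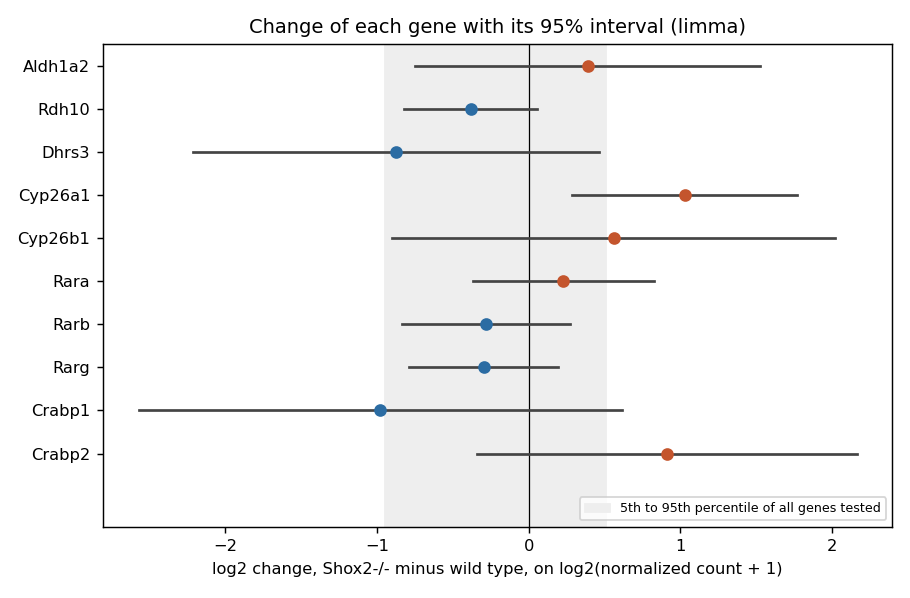
Log2 change between labelled groups (Shox2-/- minus wild type, horizontal axis) of each gene from limma, with its 95% interval as a line, orange for a positive and blue for a negative change; the grey band spans the 5th to 95th percentile of all 17034 genes tested, -0.95 to 0.51. The interval of Cyp26a1 (0.29 to 1.77) lies above 0, and the intervals of the other 9 genes include 0.

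Among the receptors, Rarb had the highest level and none separated the groups. Rarb (ENSMUSG00000017491, chromosome 14, 16430839 to 16819156, minus strand), the receptor gene that retinoic acid itself induces, was at 3333, 3269.8 and 4274 normalized counts under the wild type label. Under the Shox2-/- label it was at 2391, 2505 and 4309. Library 3 of each group is high and the groups overlap. The log2 change was -0.28 (SE 0.24, 95% interval -0.84 to 0.27; limma adjusted p = 0.603). It was -0.13, -0.16 and -0.56 without libraries 1, 2 and 3 labelled Shox2-/- and -0.16 without library 3 labelled wild type. Rarb and the topoisomerase gene Top2b on the opposite strand share 1793 exon bases in the annotation, and no source says whether strand was used in counting, so the level of Rarb is uncertain where they overlap. Top2b, chosen for that overlap, was at 11495 to 13525 under the wild type label and at 13638 to 14749 under the Shox2-/- label. Whether reads on the shared bases were counted for Rarb, for Top2b, for both or for neither is not stated in the sources used here. The Rarb counts could thus be too high or too low, and the part of Top2b reads in them was not tested.

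Rara, the broadly expressed receptor (ENSMUSG00000037992, chromosome 11, 98927818 to 98974942, plus strand), was at 1167, 1082 and 597 normalized counts under the wild type label and at 1218, 1024 and 969 under the Shox2-/- label. Library 3 labelled wild type is the only low value, and the groups overlap. The log2 change of 0.23 (SE 0.25; limma adjusted p = 0.710) turned to -0.08 without that library and to -0.07 with voom sample quality weights, and it ran up to 0.41 (without library 1 labelled wild type), so no direction can be given. Across the 6 libraries Rara ran opposite to Dhrs3 (Pearson r -0.95 on the log2 scale, the lowest of the 45 pairs of members and given as a description), and library 3 labelled wild type was highest for Dhrs3 and lowest for Rara. Rarg, the receptor known from skin and mesenchyme (ENSMUSG00000001288, chromosome 15, 102234938 to 102257517, minus strand), was at 871, 847 and 745 under the wild type label and at 820.1, 478 and 755.5 under the Shox2-/- label, with library 2 labelled Shox2-/- low and groups that overlap (log2 change -0.30, SE 0.21; limma adjusted p = 0.535). The log2 change was -0.06 without that library and -0.45 without library 1 labelled Shox2-/-. The RXR partners were named for their role. Rxra stood at 1173 to 1565 and 1139 to 1448, and Rxrb at 913 to 1258 and 1056 to 1194, with ranges that overlap. Rxrg was low, at 4.44 to 16.6.

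Neither binding protein gene passed the test, their groups overlap, and the signs of their changes were opposite. Crabp1 (ENSMUSG00000032291, chromosome 9, 54764748 to 54773110, plus strand), whose protein is linked to holding and clearing retinoic acid, was at 191, 175 and 590.4 normalized counts under the wild type label. It was at 362, 76.9 and 91.85 under the Shox2-/- label. Library 3 labelled wild type is again far above the others, and the groups overlap (log2 change -0.98, SE 0.68, 95% interval -2.57 to 0.62; limma adjusted p = 0.528). Without that library the log2 change was -0.42, without library 1 labelled Shox2-/- it was -1.67, and without library 2 of that group it was -0.57.

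Crabp2 (ENSMUSG00000004885, chromosome 3, 87948666 to 87953376, plus strand), whose protein is known for delivering retinoic acid to RARs in the nucleus, was at 216, 222 and 446 under the wild type label. Under the Shox2-/- label it was at 1129.8, 257 and 490.3. Library 1 labelled Shox2-/- stands above the rest, and library 2 of that group lies below library 3 labelled wild type. The log2 change was 0.91 (SE 0.53, 95% interval -0.34 to 2.16; limma adjusted p = 0.464), and it was 0.35 without library 1 labelled Shox2-/- and 1.42 without library 2 of that group.

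Per length, Crabp1 exceeded Crabp2 in each library labelled wild type and lay below it in each library labelled Shox2-/-. In normalized counts without length scaling, Crabp1 exceeded Crabp2 only in library 3 labelled wild type. Which gene leads under the wild type label thus rests on the exon lengths used (802 and 1322 bases), while the order of the libraries by their ratio does not. The ratio of Crabp1 to Crabp2, both as normalized counts per 1000 exon bases, was 1.46, 1.30 and 2.18 under the wild type label. It was 0.528, 0.492 and 0.309 under the Shox2-/- label. The mean ratios were 1.65 ± 0.470 and 0.443 ± 0.117 (SD, n = 3 each), 3.72-fold apart, and the groups do not overlap. This ratio was chosen after its values were seen and was not tested. Of the 45 ratios between pairs of the 10 genes, 9 do not overlap between the groups, a share near the 21.8% of ratios between all pairs of tested genes with no 0. Of those 9, 5 include Cyp26a1, whose own groups do not overlap.

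**Figure D3:**
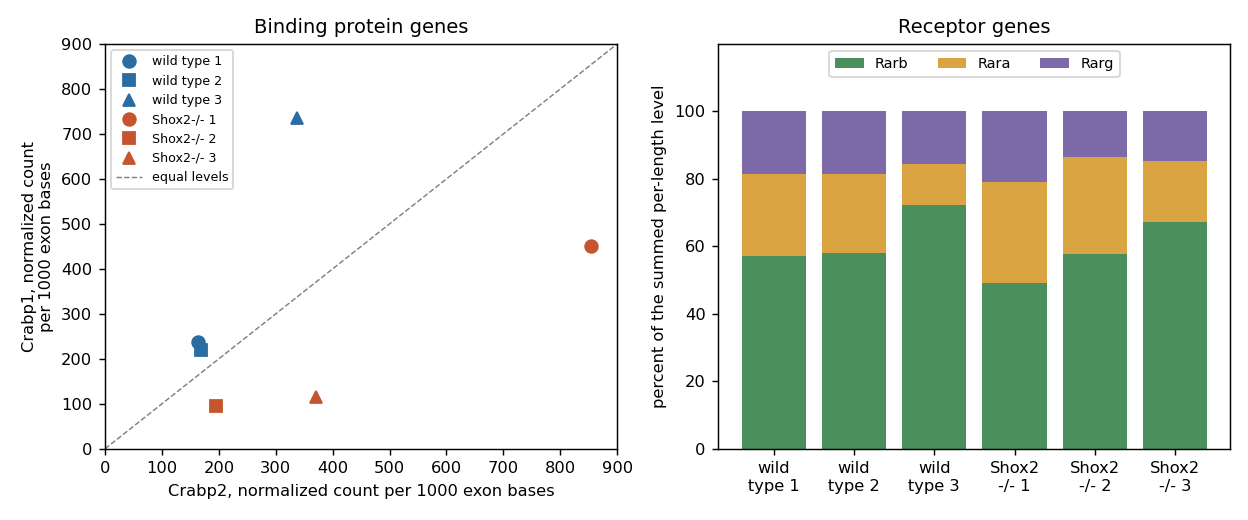
Left, Crabp1 against Crabp2 in each library (normalized count per 1000 exon bases on both linear axes, dashed line at equal levels, blue for wild type and orange for Shox2-/-); right, as stacked bars, the share of Rarb, Rara and Rarg in the summed per-length level of the 3 receptor genes in each library (percent). The 3 libraries labelled wild type lie above the line and the 3 labelled Shox2-/- below it, while Rarb makes up 49.1% to 72.3% of the receptor level in every library. Where the line falls among the points depends on the exon lengths used.

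Compared per length, Rarb and Rdh10 had the highest and the breakdown enzymes the lowest mean levels of the 10 genes. Levels were normalized counts per 1000 bases of union exon length (GENCODE release M21), averaged over the 6 libraries. Rarb (636 ± 157, SD over 6 libraries) and Rdh10 (516 ± 102) stood at the top, followed by Crabp2 (348 ± 264), Crabp1 (309 ± 245), Rara (231 ± 50.7), Aldh1a2 (188 ± 89.9), Rarg (177 ± 33.7) and Dhrs3 (152 ± 126). Cyp26a1 (92.7 ± 39.9) and Cyp26b1 (21.2 ± 14.1) were lowest. This order is that of the means over both groups and differs within them: by group mean, Crabp1 (398) lay above Crabp2 (223) under the wild type label, while under the Shox2-/- label Crabp2 (473) lay above Rdh10 (453) and Cyp26a1 (123) above Dhrs3 (98.3). The ranges of each gene and the next in this order overlap, and Cyp26a1 over Cyp26b1 is the one neighbouring pair with the same order in all 6 libraries. Crabp2 lay above Crabp1, and Aldh1a2 above Rarg, in 3 of 6 libraries each. Within the receptors, Rarb held 62.6% ± 8.40 of the per-length sum in libraries labelled wild type and 58.0% ± 9.08 under the Shox2-/- label (SD, n = 3 each), with the doubt from Top2b given above. The share of Rara ran from 12.2% (library 3 labelled wild type) to 30.1% (library 1 labelled Shox2-/-) and that of Rarg from 13.6% to 20.8%, and the groups overlap for each receptor.

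The highest and lowest values of the members were spread over libraries of both labels. Library 3 labelled wild type was highest for Rdh10, Dhrs3 and Crabp1 and lowest for Rara. Library 2 labelled Shox2-/- was lowest for 5 of the 10 genes (Aldh1a2, Rdh10, Cyp26b1, Rarg and Crabp1) and highest for Cyp26a1. Library 3 labelled Shox2-/- was highest for Aldh1a2, Cyp26b1 and Rarb. The median absolute log2 difference over the 10 genes was 0.081 between libraries 1 and 2 labelled wild type and 0.348 to 0.977 in the other 14 pairs. The smallest of those, 0.348, joined library 3 labelled wild type with library 3 labelled Shox2-/-, across the groups.

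**Figure D4:**
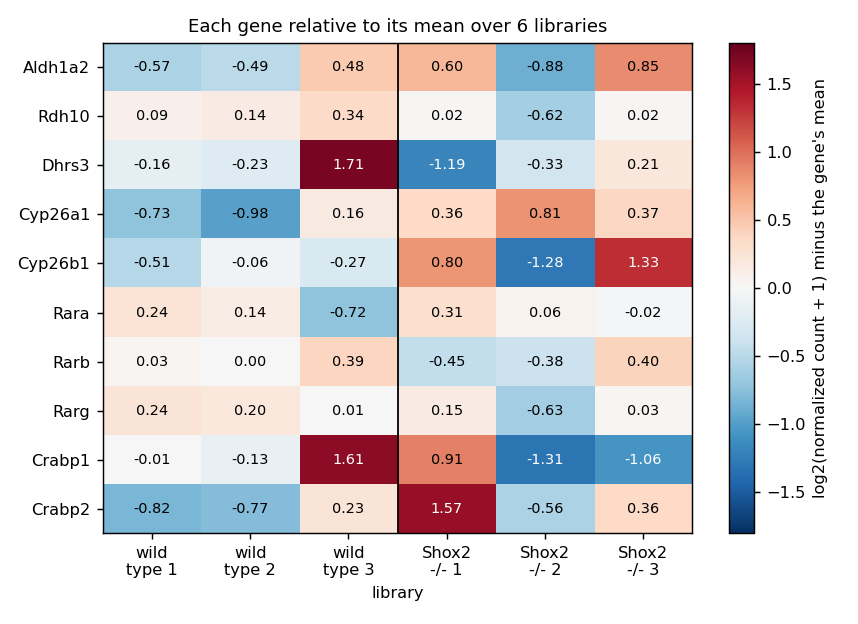
Log2(normalized count + 1) of each gene (rows) in each library (columns) minus the gene's mean over the 6 libraries, as colour and number; the black line divides the labelled groups. The strongest cells are Dhrs3 (1.71) and Crabp1 (1.61) in library 3 labelled wild type and Crabp2 (1.57) in library 1 labelled Shox2-/-, while libraries 1 and 2 labelled wild type have like columns.

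Some other genes followed the members' patterns closely over the 6 libraries, by the highest Pearson r on the log2 scale among the genes tested. For Cyp26a1 these were Pkig (r 0.9998), Gm3531 (0.995) and Arf6 (0.993). For Aldh1a2 they were Nin (0.997), Wbscr17 (0.991) and Zak (0.988), and for Crabp2 Rpl27a (0.995), Orc2 (0.993) and Hs2st1 (0.992). Rarb was most like Nab1 (0.995), Col4a2 (0.991) and Gm25945 (0.986), and Rara like Med12 (0.996), Baz2a (0.995) and Plekhg2 (0.995). Rdh10 was most like Gm4969 (0.998), Bmpr1b (0.996) and Pnmal2 (0.995), and Rarg like Ankrd34a (0.995), Gm7211 (0.993) and Kcnip2 (0.993). For Dhrs3 the nearest were Plscr2 (0.991), Fam160b1 (0.989) and Jazf1 (0.989), and for Crabp1 Fads6 (0.993), Kars (0.987) and Nit2 (0.983). Those of Cyp26b1 were Idh3g (0.997), Tdg (0.989) and Dusp12 (0.984). The points are 6 libraries that share the group labels, and 2 of them are near copies. With so few points and 17034 genes to choose from, values this high are a description of likeness alone.

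The wider pathway, from retinol carriers to co-regulators, gave 0 calls as well. Of 36 other retinoid pathway genes 24 were tested, 11 higher and 13 lower, with a median log2 change of -0.04 beside 0.01 for all genes. At an unadjusted p under 0.05 there were 4 of the 24, where 14.2% of all genes passed, among them Stra6 and Rbp4 (lower) and Adh5 (higher). Groups did not overlap for 3 of the 24, Stra6 and Adh5 among them, beside 23.6% of all genes.

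Stra6, the membrane receptor through which cells take up retinol, was at 21.6, 24.1 and 71.4 normalized counts under the wild type label. It was at 12.1, 4.47 and 8.15 under the Shox2-/- label (log2 change -1.99, SE 0.56; limma adjusted p = 0.252). Each library labelled wild type exceeds every library labelled Shox2-/-, and library 3 labelled wild type is the highest. The values under the wild type label come from 13, 37 and 91 reads. Those under the Shox2-/- label come from 7, 5 and 11 reads, so the size of the change is imprecise. Stra6 passed the filter on low values through the libraries labelled wild type, and the alternative filter at 50 in 3 libraries left it out. Lrat, the enzyme that stores retinol as esters, was too low to be tested, at 4.98, 3.91 and 51.8 and at 1.73, 0.89 and 2.22; it was named for its role after its values were seen.

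Rbp4, the gene of the secreted carrier of retinol in blood, was at 614, 651 and 411 under the wild type label and at 46.7, 544 and 77.8 under the Shox2-/- label (log2 change -2.11, SE 0.82; limma adjusted p = 0.324). Library 2 labelled Shox2-/- lies within the other group and libraries 1 and 3 lie far below it. The summed level of the 10 endoderm markers, led by Apob and Afp, was 7463 to 10342 under the wild type label and 872, 7566 and 2450.2 in libraries 1, 2 and 3 labelled Shox2-/-, with 2 of the markers higher and 8 lower by log2 change, and the part of endodermal cells in the Rbp4 level was not tested. Without library 2 labelled Shox2-/- Rbp4 was called lower (log2 change -3.16, adjusted p = 0.0396, against up to 0.636 under other alternatives), in a fit that called 51 genes (0.299%). Adh5, a ubiquitous alcohol dehydrogenase, was at 3746 ± 83.9 and 4400.3 ± 296 (SD, n = 3 each; log2 change 0.23, limma adjusted p = 0.339). The co-regulator genes Ncor1 and Ncoa2 and the retinol dehydrogenase gene Rdh11 were among the 4 most abundant genes of the list, with means over the 6 libraries of 6865, 3455 and 2294.

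Genes known to respond to retinoic acid were also without a call. Of 30 listed genes 24 were tested, 8 higher and 16 lower in the libraries labelled Shox2-/- (48.2% of all genes were lower). The median log2 change was -0.21, beside 0.01 for all genes. The summed mesenchyme and fibroblast markers and the summed epicardium markers were lower in the same libraries without overlap (led by Col3a1 and Postn, and by Krt19 and Bnc1). By log2 change, 3 of the 10 mesenchyme and fibroblast markers and 0 of the 9 tested epicardium markers were higher, and their part in this count was not tested. At an unadjusted p under 0.05 there were 7 (6 lower, 1 higher), where 7.23% and 6.92% of all genes passed in those directions. Nr2f2 (COUP-TFII), a nuclear receptor known for atrial identity and vein formation, had the lowest p, at 1563, 1539 and 1430.4 under the wild type label and 647, 787 and 778 under the Shox2-/- label (log2 change -1.04, SE 0.12; limma adjusted p = 0.0954). It was called with voom sample quality weights (adjusted p = 0.00642), in a fit that called 303 genes (1.78% of those tested). It was also called by limma without library 2 labelled Shox2-/- (adjusted p = 0.0469), in a fit that called 51 genes (0.299%). With the near-copy libraries labelled wild type averaged into 1 sample, its limma adjusted p was 0.505, and it reached 0.514 under other alternatives. Meis1, a TALE homeobox gene, was at 5523 ± 254 and 3913 ± 754 (SD, n = 3 each; log2 change -0.51, limma adjusted p = 0.255). Groups did not overlap for 8 of the 24 genes, beside 23.6% of all genes. The most abundant genes of the list, Pdgfra, Meis2 and Nrip1, averaged 12565, 6757 and 2118 over the 6 libraries. Beside these, the log2 changes of the members with a repeat in their promoters had opposite signs, at 1.03 for Cyp26a1 and -0.28 for Rarb.

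**Figure D5:**
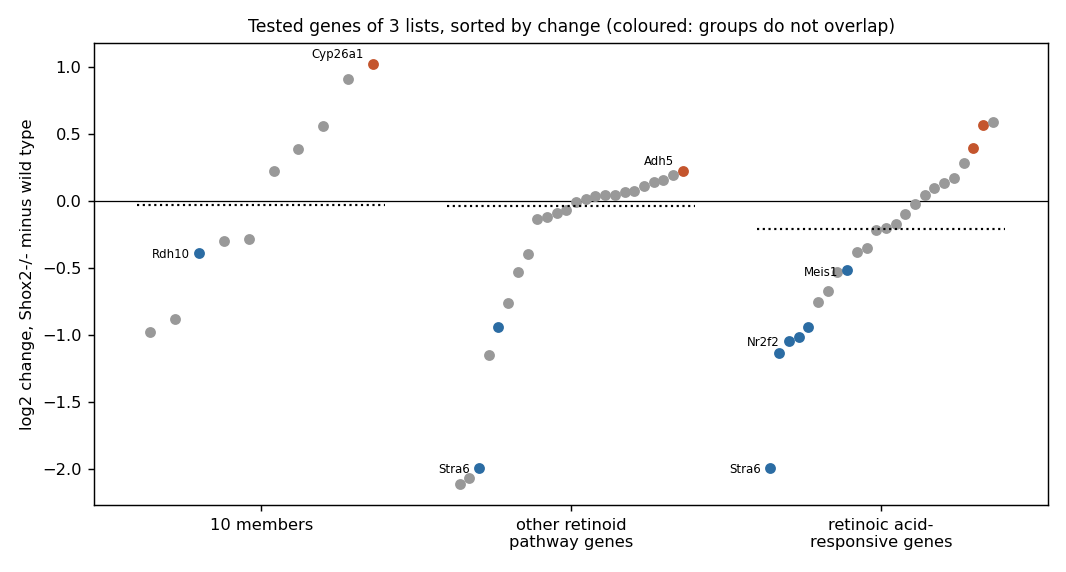
Log2 change (Shox2-/- minus wild type, vertical axis) of the tested genes of 3 lists, each sorted by change; coloured points are genes whose groups do not overlap (orange higher, blue lower in the libraries labelled Shox2-/-), those described in the text are named, and dotted lines are list medians. The medians are -0.03, -0.04 and -0.21, and Stra6 appears in both lists to the right.

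Of the 31 genes whose promoters hold the repeat, 8 were tested, with 2 higher (Cyp26a1 and Hbb-y) and 6 lower (48.2% of all genes were lower). None was called, and 4, Cyp26a1 itself among them, had an unadjusted p under 0.05, where 14.2% of all genes passed. With 8 genes, these counts are a description alone. The search and the count were made with the values of Cyp26a1 and Rarb known.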

How the data were processed

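RNA sequencing values of 6 libraries were analysed, 3 per labelled group. The submitters' processing notes name build mm10 and the tools BWA, CASAVA 1.8.2, DESeq2 1.14.0 and HTSeq without their roles. The deposited values are gene-level read counts that the authors divided by 1 size factor per library: when each library is divided by its own step, 100% of values lie within 0.1 of a whole read. Kit and strandedness are not stated in the sources used here. Values were tested as log2(value + 1) with limma 3.58.1 in R 4.3.3 (1 term for group, empirical Bayes with trend, two-sided, adjusted by Benjamini-Hochberg) over the 17034 genes that reach 10 in 3 or more libraries. On this scale the fold changes of low genes are understated. The fit was tested on simulated data with 15% variation beyond counting, where the changed genes had a mean of at least 50. It found 96.2% of 2-fold changes there. Members such as Crabp1 (177 ± 160 under the Shox2-/- label, SD, n = 3) vary more, so this share does not carry over to them. A call needs an adjusted p under 0.05. Positions and exon lengths come from GENCODE release M21 on GRCm38, where 30484 IDs matched, and promoters from RefSeq on GRCm38.p6. The members, lists and tests were chosen with earlier results of these data known. Named genes are the 10 members, Shox2 and Alcam, per list the 4 with the lowest p and the 4 with the highest mean, and the 3 nearest patterns of each member. Some genes that this rule picks are not reported here. Others are said to be chosen for their role or after their values were seen. Alternatives covered pseudocount, filter, scaling, voom, the near-copy libraries, a term for Diff9 in the title and each library left out.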

Additional observations from a re-analysis of the deposited data

How the results depend on the processing

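Under 16 alternatives, 157 of 160 results for the 10 members kept their direction and their side of the threshold. The exceptions were Cyp26a1, called with voom sample quality weights, and Rara, which reversed to -0.0732 with those weights and to -0.0768 without library 3 labelled wild type (log2 change; -0.08 to 0.41 with each library left out). The cause was not tested. No member was called in the analysis reported and the alternatives reuse the same libraries, so the count of 157 says little about the size of the changes. Over the alternatives the log2 change ran from 0.04 to 1.34 for Cyp26b1, from -1.21 to -0.08 for Dhrs3 and from 0.06 to 0.92 for Aldh1a2. The number of genes called, 0 in the analysis reported, was 2 with no filter on low values (H19 and Gm21967, named after the fact) and 303 with the quality weights, and ranged from 0 to 51 with each library left out (51 without library 2 labelled Shox2-/-). The members called were 1 with the quality weights, the responsive genes called were 1 with them and 0 to 1 with each library left out, and the other pathway genes called were 0 to 1 there, in each case with 1 without library 2 labelled Shox2-/-. No member was called with any library left out. Counts of reads as low as 40 (Cyp26b1, library 1 labelled wild type) limit the precision of the lowest member. The planned edgeR and DESeq2 alternatives on the recovered reads were not run, and voom was used on them instead. No paired analysis was possible because the titles of the groups share only 1 number, Diff9, carried by libraries 1 and 2 labelled wild type and library 3 labelled Shox2-/-. A fit with a term for it called 0 genes and moved Crabp1 from -0.98 to -1.40 and Cyp26a1 from 1.03 to 0.82 (log2 changes).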
